A study of Mus musculus with 11 samples.

Results

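The lysyl oxidase family of the mouse comprises 5 genes, *Lox*, *Loxl1*, *Loxl2*, *Loxl3* and *Loxl4*, and all 5 were found by gene symbol among the 24062 gene rows of the RNA-seq count tables. Expression was measured in mesenchymal cells grown from fetal lungs at embryonic day 15 (E15). The 11 libraries came from 4 WT (Sp3+/+), 4 Sp3+/- and 3 Sp3-/- cultures, which carried 2 intact copies, 1 intact copy or no intact copy of *Sp3*, the gene of a transcription factor that binds GC boxes in promoters. The mutation is a germline null allele, so that every cell of an embryo carried it, and the embryos came from matings of heterozygous mice. Cells of all 3 genotypes were released from lungs with collagenase, selected by rapid adhesion to plastic and passaged before RNA extraction. The labels call the cells primary and do not say whether each library came from its own embryo, so that the p-values measure the spread between these libraries.

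Lysyl oxidases are copper-dependent amine oxidases that are secreted into the extracellular matrix. They convert lysine and hydroxylysine residues of collagen and tropoelastin to reactive aldehydes, from which the covalent cross-links of collagen fibrils and elastic fibers form. In the lung these cross-links set the stiffness and the recoil of the tissue, and mesenchymal cells are a major source of the enzymes. The family falls into a pair of subgroups that share the catalytic domain. LOX and LOXL1 carry a propeptide that procollagen C-proteinases remove, whereas LOXL2, LOXL3 and LOXL4 carry scavenger receptor cysteine-rich domains.

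On GRCm38.p6, the mm10 build of the files, *Lox* (gene ID 16948) lies on the minus strand of chromosome 18, from 52516060 to 52529867. *Loxl1* (16949) lies on the minus strand of chromosome 9, from 58287723 to 58313212. *Loxl2* (94352) lies on the plus strand of chromosome 14, from 69608692 to 69695834, and *Loxl3* (16950) on the plus strand of chromosome 6, from 83034205 to 83052566. *Loxl4* (67573) lies on the minus strand of chromosome 19, from 42592279 to 42612806. The 5 genes thus lie on 5 chromosomes. In GENCODE M39, which is annotated on GRCm39, *R3hcc1* overlaps *Loxl2* on the opposite strand over 943 exonic bases. Also on the opposite strand, *Htra2* overlaps *Loxl3* over 1182 and *R3hcc1l* overlaps *Loxl4* over 78. These lengths may differ in the annotation that was counted, and the strand setting of the counting is not given in the sources used here. Where a count ignores strand, reads from these stretches cannot be told apart between the genes. Between Sp3-/- and WT cells the log2 fold change was -0.28 for *R3hcc1* (adjusted p = 0.1404, edgeR), 0.21 for *Htra2* (adjusted p = 0.1343) and 0.27 for *R3hcc1l* (adjusted p = 0.1165). Between Sp3-/- and Sp3+/- cells *R3hcc1* gave -0.32 (adjusted p = 0.0462, edgeR), *R3hcc1l* gave 0.35 (adjusted p = 0.0463) and *Htra2* gave 0.14 (adjusted p = 0.252), so that *R3hcc1* was called lower and *R3hcc1l* higher there.

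Reads assigned to genes ranged from 14113788 to 35351093 per WT library, from 13842791 to 59297495 per Sp3+/- library and from 9849111 to 45630738 per Sp3-/- library. Each member had at least 206 reads in every library. Levels are given as log2 CPM, the log2 of CPM, which is the count scaled to a common number of reads on genes after TMM normalization, and as mean±s.d. *Sp3* itself averaged 6.38±0.35 log2 CPM in WT (n=4), 5.91±0.19 in Sp3+/- (n=4) and 4.10±0.18 in Sp3-/- cells (n=3), and no Sp3-/- library overlapped a library of another genotype. The Sp3-/- libraries still held 144 to 810 reads of *Sp3*. Summed CPM of 10 mesenchyme markers was 3510 to 3850 in WT, 3440 to 3780 in Sp3+/- and 2400 to 2450 in Sp3-/- libraries. *Vim* made up most of that sum, and without it the markers summed to 424 to 1020, 609 to 966 and 261 to 366 CPM, with 424 in WT 468-4. Of 9 tested against WT, 4 were called lower in Sp3-/- cells, among them *Vim* and *Pdgfrb*, whereas *Pdgfra* gave -0.85 (adjusted p = 0.478, edgeR) and *Tcf21* 0.83 (adjusted p = 0.364). Of all genes tested, 9.77% were called lower. Some library titles end in the number 2 or 3 and others carry no such suffix, and the sources used here do not explain it. All 3 Sp3-/- libraries lack the suffix, as do WT 468-4 and Sp3+/- 697-4, although the name of the deposited file of 697-4 carries the suffix 2, so that suffix and genotype overlap in part. In bulk RNA, fewer cells of a type and less RNA per cell cannot be told apart.

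To ask whether loss of Sp3 altered expression of the cross-linking enzymes, Sp3-/- cells were compared with WT cells. Expression of 4 of the 5 members was lower in Sp3-/- cells at an adjusted p below 0.05. *Loxl4* fell 5.03-fold, *Loxl2* 3.17-fold, *Loxl3* 3.00-fold and *Lox* 1.71-fold. *Loxl1* was 1.47-fold lower in the fit but did not pass the test. With the first number of the library label as a block, to whose contrast WT 468-4 adds nothing, 3 members were called, since *Lox* gave an adjusted p of 0.0558 (edgeR). Among all 14025 genes tested, 18.5% were called in either direction and 9.77% were called lower. The family was chosen with earlier results of these data known, so that these shares are no independent test of it. Libraries of both genotypes did not overlap for the 4 called members, and 16.7% of all genes were lower in Sp3-/- cells without overlap. The plot of levels by library shows the individual values.

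**Figure D1:**
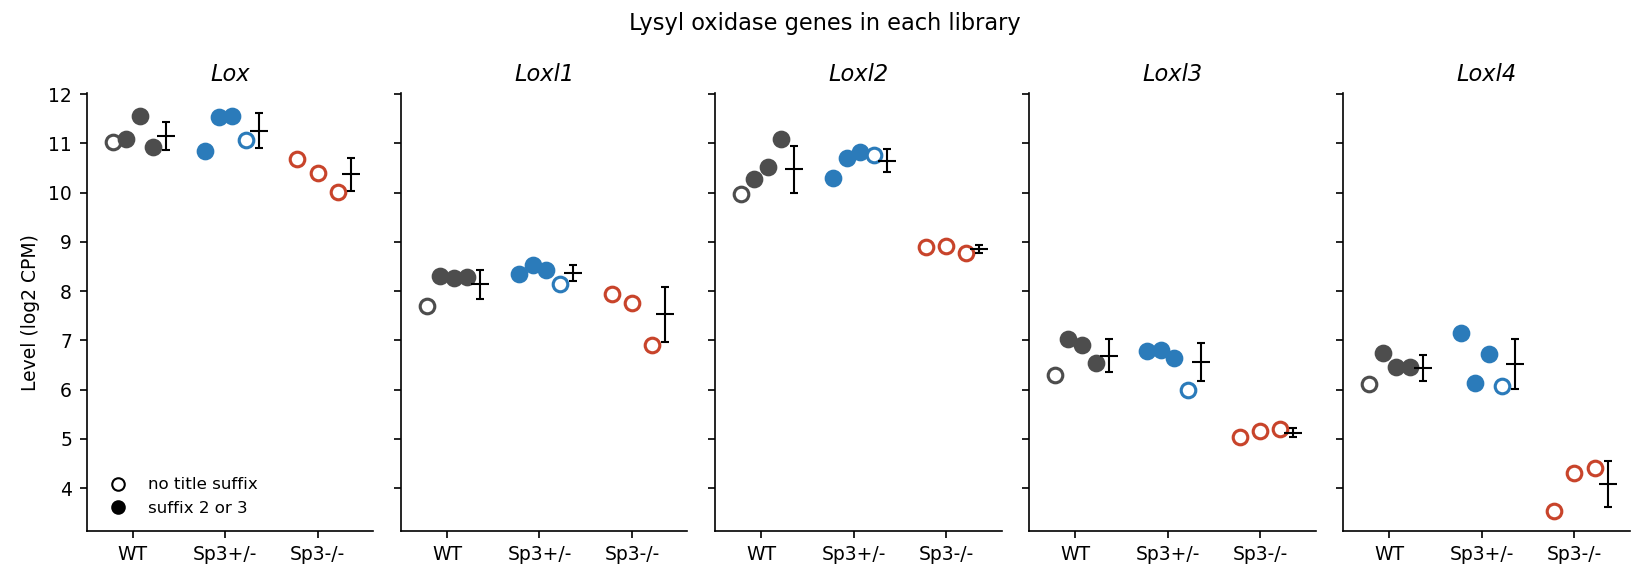
Level of each lysyl oxidase gene in log2 CPM (y axis) by genotype (x axis). Each point is 1 library, open where its title carries no suffix, and the bars give mean and s.d. (n=4, 4 and 3). For *Lox*, *Loxl2*, *Loxl3* and *Loxl4* all 3 Sp3-/- libraries lie below every WT library, and for *Loxl1* they overlap WT.

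*Lox* encodes the founding enzyme of the family, which cross-links both collagen and elastin. In WT libraries 468-4, 685-2, 697-1 and 697-3 it stood at 11.03, 11.09, 11.56 and 10.92 log2 CPM. In Sp3+/- libraries 468-3, 685-5, 685-7 and 697-4 it stood at 10.84, 11.54, 11.56 and 11.07. In Sp3-/- libraries 685-1, 697-2 and 697-5 it stood at 10.69, 10.40 and 10.02. The highest Sp3-/- library lay just below the lowest WT and Sp3+/- libraries, so that the genotypes did not overlap but came close. Between Sp3-/- and WT cells *Lox* gave a log2 fold change of -0.77 with a standard error of 0.22 (adjusted p = 0.0495 by edgeR, Benjamini-Hochberg over all genes tested), just inside the threshold. The call held in 2 of the 7 fits that left out 1 library, those without WT 468-4 or without Sp3-/- 685-1, and the adjusted p reached 0.145 without Sp3-/- 697-2 (edgeR).

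*Loxl1* encodes an enzyme that is tied to elastic fibers. WT libraries 468-4, 685-2, 697-1 and 697-3 gave 7.70, 8.31, 8.26 and 8.29 log2 CPM. Sp3+/- libraries 468-3, 685-5, 685-7 and 697-4 gave 8.34, 8.54, 8.42 and 8.15. Sp3-/- libraries 685-1, 697-2 and 697-5 gave 7.94, 7.75 and 6.90. A single Sp3-/- library, 697-5, lay below every WT library, and WT 468-4 lay below the other Sp3-/- libraries. Its fitted log2 fold change between Sp3-/- and WT cells was -0.56 (95% confidence interval -1.18 to 0.06, adjusted p = 0.169, edgeR). Without WT 468-4 it was -0.69 and without Sp3-/- 697-5 it was -0.31, and it was called in 0 of the 7 fits.

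*Loxl2* encodes an oxidase that acts on collagen IV of basement membranes and on fibrillar collagen. WT libraries 468-4, 685-2, 697-1 and 697-3 stood at 9.98, 10.28, 10.53 and 11.09 log2 CPM. Sp3+/- libraries 468-3, 685-5, 685-7 and 697-4 stood at 10.30, 10.70, 10.83 and 10.77. Sp3-/- libraries 685-1, 697-2 and 697-5 stood at 8.90, 8.91 and 8.77. The Sp3-/- libraries were the most alike of the 3 genotypes, with an s.d. of 0.08 against 0.47 in WT, and lay more than 1 log2 unit below the lowest WT library. For *Loxl2* the log2 fold change against WT was -1.66, with a standard error of 0.27 (adjusted p = 0.0130, edgeR). It ranged from -1.81 to -1.41 over the fits that left out 1 library, of which 6 of 7 kept the call, and without Sp3-/- 697-2 the adjusted p was 0.0558 (edgeR).

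*Loxl3* encodes an oxidase needed for normal craniofacial and skeletal development in mice. It stood at 6.29, 7.02, 6.90 and 6.55 log2 CPM in WT 468-4, 685-2, 697-1 and 697-3. It stood at 6.78, 6.81, 6.64 and 5.99 in Sp3+/- 468-3, 685-5, 685-7 and 697-4. In Sp3-/- 685-1, 697-2 and 697-5 it stood at 5.03, 5.15 and 5.20. All Sp3-/- libraries were lower than every library with an intact copy of *Sp3*, the nearest of which was Sp3+/- 697-4. *Loxl3* gave a log2 fold change against WT of -1.58, with a standard error of 0.19 (adjusted p = 0.00764, edgeR). The call held in all 7 fits that left out 1 library, with log2 fold changes from -1.70 to -1.48.

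*Loxl4* encodes the member with the lowest level and the largest change. WT libraries 468-4, 685-2, 697-1 and 697-3 stood at 6.11, 6.75, 6.45 and 6.46 log2 CPM. Sp3+/- libraries 468-3, 685-5, 685-7 and 697-4 stood at 7.15, 6.13, 6.73 and 6.07. Sp3-/- libraries 685-1, 697-2 and 697-5 stood at 3.54, 4.30 and 4.40. The gap between the highest Sp3-/- and the lowest WT library exceeded the whole range of either genotype. Against WT this amounted to a log2 fold change of -2.33, with a standard error of 0.26 (adjusted p = 0.00726, edgeR), and 1.33% of the genes tested had a lower value. The call held in all 7 fits that left out 1 library, with log2 fold changes from -2.48 to -2.11.

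Because Sp proteins bind GC boxes, the promoter of *Loxl4* is shown, the 1 of the 5 members with a window in the RefSeq promoter table used here. The window runs from 250 bases before to 50 bases after the gene start and lies on the minus strand at chr19:42612757-42613056 of GRCm38.p6. The capitals mark the GC box hexamer GGGCGG, which was searched on both strands.
Loxl4 promoter: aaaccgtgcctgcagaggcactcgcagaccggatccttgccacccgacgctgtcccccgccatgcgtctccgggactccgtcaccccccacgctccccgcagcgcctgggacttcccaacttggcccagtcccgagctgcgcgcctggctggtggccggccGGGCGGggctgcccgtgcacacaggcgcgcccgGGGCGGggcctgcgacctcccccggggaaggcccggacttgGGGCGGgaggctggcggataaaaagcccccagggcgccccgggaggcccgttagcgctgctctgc
The window held 3 boxes, all on the strand of the gene, which began 89, 56 and 15 bases before the gene start. Its GC content was 75.0%, against a median of 52.7% over 32851 promoter windows of the same length. At least 1 box was present in 35.7% of those windows and at least 3 in 10.7%. A match of letters is a description of the window and shows no binding.

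Sp3+/- cells were compared with WT cells to ask whether loss of 1 copy altered the family. No member was called changed between Sp3+/- and WT cells, and neither was any other gene, since edgeR called 0% of 14130 genes, with 246 at an unadjusted p below 0.05. DESeq2 and limma-voom also called 0 genes, with 281 and 303 at an unadjusted p below 0.05. The log2 fold change was 0.12 for *Lox* (95% confidence interval -0.36 to 0.59), 0.21 for *Loxl1* (-0.26 to 0.68) and 0.13 for *Loxl2* (-0.34 to 0.61). It was -0.13 for *Loxl3* (-0.56 to 0.30) and 0.13 for *Loxl4* (-0.45 to 0.71). Each lower bound lay above the log2 fold change fitted for that member between Sp3-/- and WT cells. *Sp3* itself differed by -0.49 in this comparison (unadjusted p = 0.0131, adjusted p = 0.9999, edgeR). Even the gene whose copies define the genotypes was thus not called, so that absence of a call does not show absence of a difference.

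Against Sp3+/- cells, all 5 members were lower in Sp3-/- cells at an adjusted p below 0.05, and no member overlapped. Among all genes, 25.5% were called in either direction, 12.5% were called lower, and 18.0% were lower without overlap. The fitted difference on the log2 scale was -2.47 for *Loxl4* (adjusted p = 0.00149, edgeR), -1.80 for *Loxl2* (adjusted p = 0.00199) and -1.46 for *Loxl3* (adjusted p = 0.00291). It was -0.89 for *Lox* (adjusted p = 0.0224, edgeR) and -0.77 for *Loxl1* (adjusted p = 0.0359). Over the 11 fits that left out 1 library, *Loxl2*, *Loxl3* and *Loxl4* kept their call in all, *Lox* in 7 and *Loxl1* in 6. With the title suffix as a covariate, *Lox* gave -0.78 (adjusted p = 0.0999, edgeR) and *Loxl1* -0.46 (adjusted p = 0.304), so that both lost their call. With 697-4 coded as suffix 2, as in its file name, *Loxl4* gave -1.90 (adjusted p = 0.444, edgeR) and no member was called. In the fit of these 2 genotypes alone, *Loxl1* gave an adjusted p of 0.0514 (edgeR). This comparison and that with WT share the Sp3-/- libraries, so that they are not independent of each other.

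**Figure D2:**
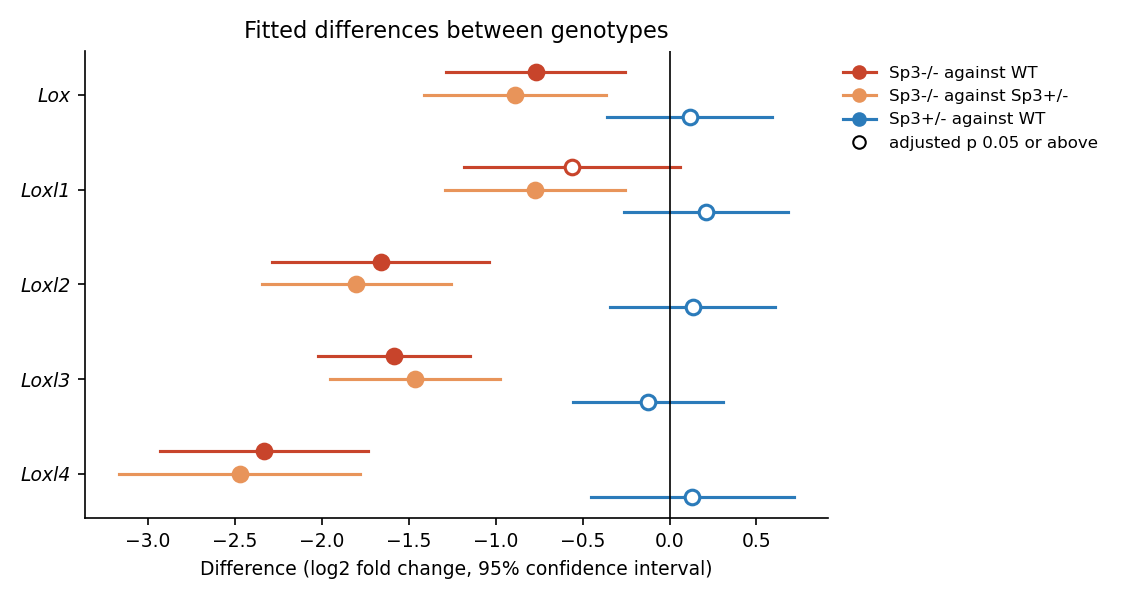
Log2 fold change of each lysyl oxidase gene with its 95% confidence interval (x axis) in the 3 comparisons of genotypes, from edgeR. Filled points passed an adjusted p below 0.05, which *Loxl1* did not against WT (-0.56), and the intervals for Sp3+/- against WT all include 0.

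The title suffix moved with several of these values. WT 468-4, the WT library without a suffix, was the lowest WT library for *Loxl1*, *Loxl2*, *Loxl3* and *Loxl4*. Sp3+/- 697-4, the Sp3+/- library without one, was the lowest of its genotype for *Loxl1*, *Loxl3* and *Loxl4*. With the suffix as a covariate over all 11 libraries, the log2 fold change between Sp3-/- and WT cells was -2.02 for *Loxl4* (adjusted p = 0.00735, edgeR), -1.38 for *Loxl2* (adjusted p = 0.0206) and -1.10 for *Loxl3* (adjusted p = 0.00681). It was -0.53 for *Lox* (adjusted p = 0.195, edgeR) and -0.19 for *Loxl1* (adjusted p = 0.675). *Loxl2*, *Loxl3* and *Loxl4* were therefore still called, and *Lox* was not. By title Sp3+/- 468-3 alone carried the suffix 2, so that it added nothing to this contrast. Outside the Sp3-/- libraries only WT 468-4 and Sp3+/- 697-4 lacked a suffix, so that the covariate rested on them. With 697-4 coded as suffix 2, as in its file name, a choice made after seeing the data, no member was called. *Loxl4* then gave -1.99 (adjusted p = 0.0591, edgeR), *Loxl3* -1.16 (adjusted p = 0.0769), *Loxl2* -1.12 (adjusted p = 0.0990), *Lox* -0.64 (adjusted p = 0.301) and *Loxl1* -0.10 (adjusted p = 0.899), and against Sp3+/- cells 0 of 14130 genes were called, with 1168 at an unadjusted p below 0.05. In that coding only WT 468-4 and the Sp3-/- libraries lacked a suffix, so that Sp3-/- against WT rested on 1 WT library. Of the fits with the suffix, *Loxl2*, *Loxl3* and *Loxl4* were thus called only in that coded by title. The loss of these calls cannot be told apart from the loss of WT libraries to compare. This fit and the next, among libraries without a suffix, share that WT library and are not separate checks. Among libraries without a suffix, which leave 1 WT library, *Loxl4* differed by -2.0, *Loxl3* by -1.17, *Loxl2* by -1.12, *Lox* by -0.65 and *Loxl1* by -0.11, and no gene of 13752 was called there by edgeR, with 1337 at an unadjusted p below 0.05.

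The libraries also share a first number in their labels, which the sources do not explain. Within the number 685, with 1 library of each genotype compared, Sp3-/- minus WT was -3.21 log2 CPM for *Loxl4*, -1.98 for *Loxl3*, -1.38 for *Loxl2*, -0.40 for *Lox* and -0.37 for *Loxl1*. Within 697, with 2 libraries of each, it was -2.10 for *Loxl4*, -1.97 for *Loxl2*, -1.55 for *Loxl3*, -1.03 for *Lox* and -0.95 for *Loxl1*. All 5 members were thus lower in Sp3-/- than in WT cells within both numbers, and the number 468 holds no Sp3-/- library. Within both numbers, however, the Sp3-/- libraries lack the title suffix and the WT libraries carry the suffix 3. Genotype and suffix thus cannot be told apart in these differences, nor in those against Sp3+/- cells within 685. Against Sp3+/- cells, *Loxl4* differed by -2.90 within 685 and -1.72 within 697, *Loxl2* by -1.86 and -1.93, *Loxl3* by -1.69 and -0.81, *Lox* by -0.86 and -0.86 and *Loxl1* by -0.54 and -0.82. Between Sp3+/- and WT cells the sign differed among the 3 numbers for each member, as for *Loxl4*, with 1.04 within 468, -0.32 within 685 and -0.38 within 697. With the first number as a block in the fit of the 7 libraries, the log2 difference between Sp3-/- and WT cells was -2.47 for *Loxl4* (adjusted p = 0.00328, edgeR), -1.79 for *Loxl2* (adjusted p = 0.00468), -1.70 for *Loxl3* (adjusted p = 0.00274), -0.83 for *Lox* (adjusted p = 0.0558) and -0.71 for *Loxl1* (adjusted p = 0.0754). WT 468-4 was the only library of its number in that fit, so that it added nothing to the contrast. The block fit thus set Sp3-/- libraries without a suffix against WT libraries with the suffix 3.

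**Figure D3:**
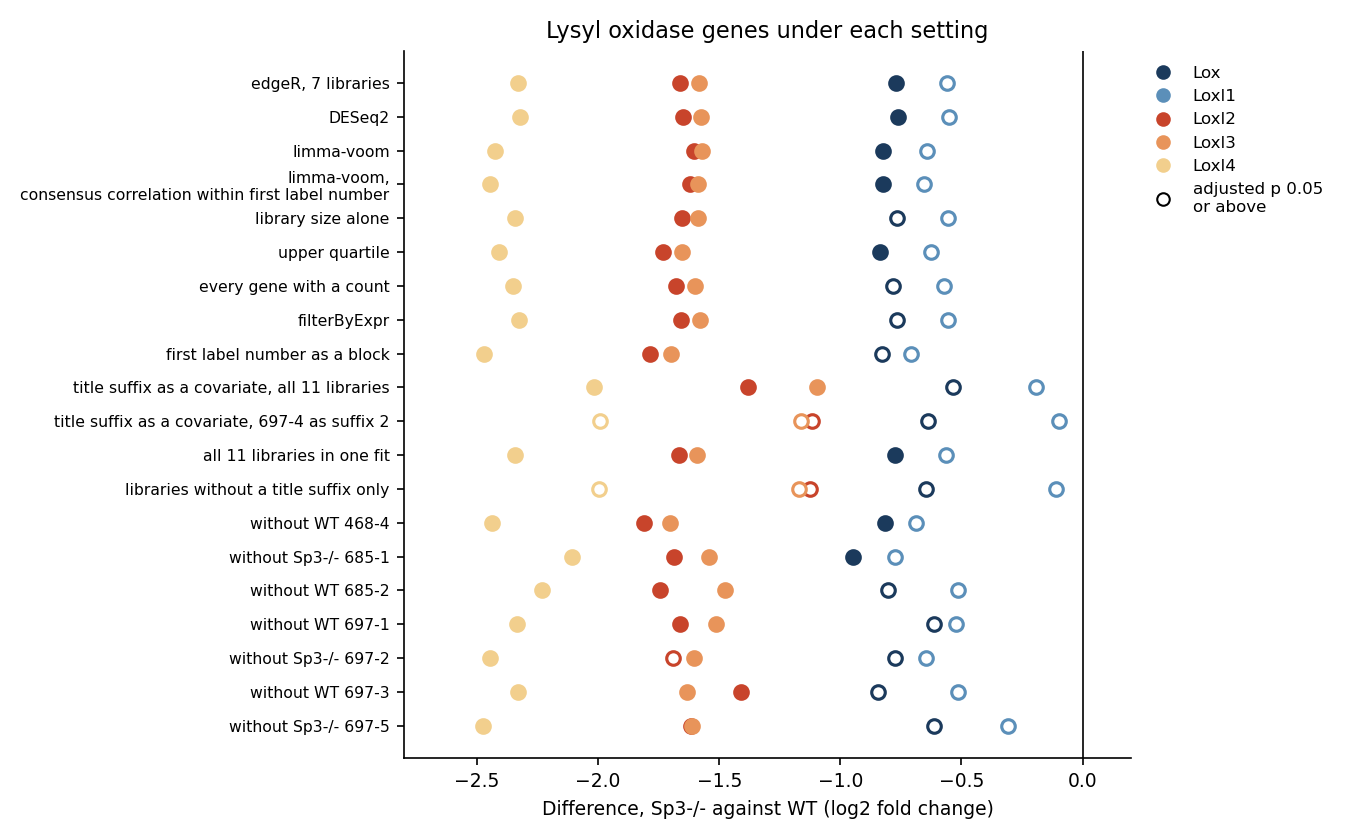
Log2 fold change of each lysyl oxidase gene between Sp3-/- and WT cells (x axis) under each way of fitting the libraries (y axis). Filled points passed an adjusted p below 0.05. Every point lies below 0, and *Loxl1* was called under no setting. *Loxl3* and *Loxl4* lost their call in the fit that kept 1 WT library and in that with 697-4 coded as suffix 2. The contrast of the latter rests on that same WT library.

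To compare the members with each other, counts were divided by the summed exon length of each gene and are given as RPKM. In WT cells *Lox* stood at 467±97.3 RPKM (s.d., n=4), *Loxl2* at 268±92.0, *Loxl1* at 72.4±13.3, *Loxl3* at 22.5±5.01 and *Loxl4* at 14.7±2.65. *Lox* and *Loxl2* overlapped in WT cells, where *Lox* was higher in 3 of 4 libraries, and so did *Loxl3* and *Loxl4*. In Sp3+/- cells the same order gave 506±122, 294±45.5, 83.6±9.48, 20.6±4.82 and 16.1±5.85 RPKM, and only *Loxl3* and *Loxl4* overlapped. In Sp3-/- cells it gave 273±61.9, 84.3±4.52, 48.9±16.7, 7.47±0.433 and 2.92±0.862 RPKM (n=3), with no overlap between neighbours. *Lox* and *Loxl2* were thus the abundant members in every genotype. With coding length in place of exon length the order of *Loxl3* and *Loxl4* turned in Sp3+/- cells.

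The make-up of the family in Sp3-/- libraries differed from that in the other genotypes for *Lox*, *Loxl2* and *Loxl4*, which was not tested. WT and Sp3+/- libraries overlapped for every member. Shares within a library depend on each other, so that a lower share of 1 member raises the others. *Lox* gave 43.6% to 61.7% of the summed RPKM of the 5 genes in WT, 50.9% to 58.4% in Sp3+/- and 63.7% to 68.0% in Sp3-/- libraries. *Loxl2* gave 26.5% to 43.8% in WT, 29.1% to 37.2% in Sp3+/- and 17.6% to 23.8% in Sp3-/- libraries. *Loxl4* gave 1.46% to 2.27%, 1.13% to 3.25% and 0.392% to 1.06%. For these members the Sp3-/- libraries lay outside the range of both other genotypes. The share of *Loxl1* was 7.62% to 10.1%, 8.10% to 11.3% and 9.08% to 12.7%, and that of *Loxl3* was 2.22% to 3.49%, 1.6% to 3.24% and 1.42% to 2.36%, and both overlapped.

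**Figure D4:**
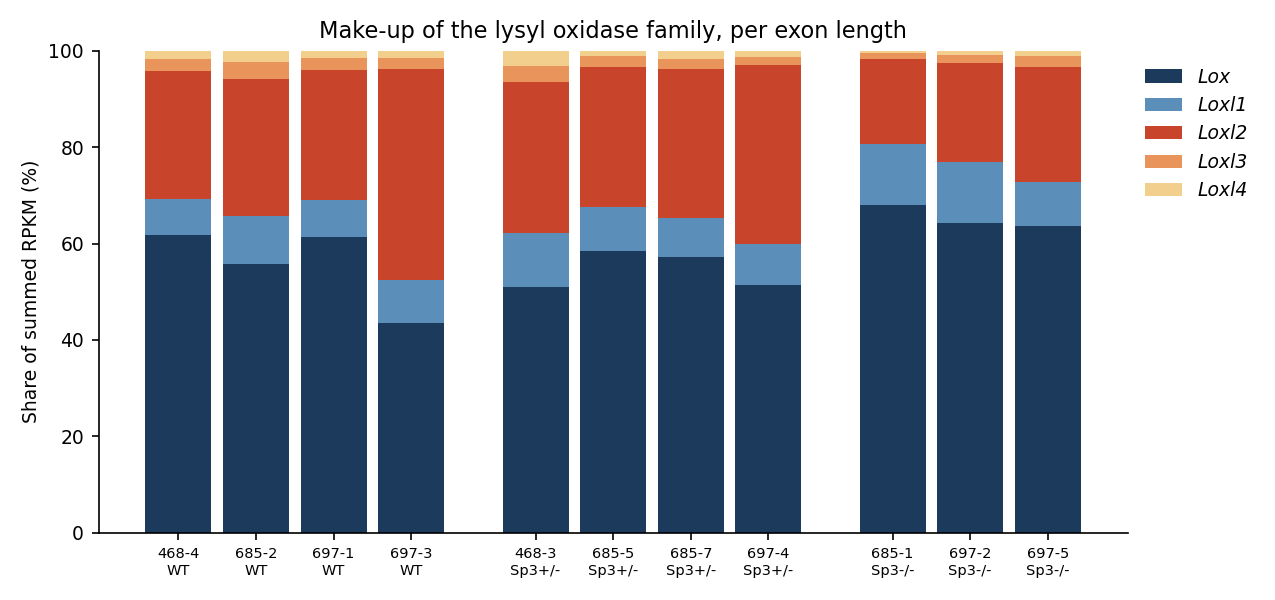
Share of each gene in the summed RPKM of the 5 lysyl oxidase genes (y axis, %) in each of the 11 libraries (x axis). *Lox* takes 63.7% or more of the bar in each Sp3-/- library and 61.7% or less in every other library.

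The ratio of 2 members within a library does not depend on the scaling of that library. All 10 pairs were compared between Sp3-/- and WT cells by an exact 2-sided permutation test, a choice made after the values were seen. With 4 and 3 libraries the smallest p this test can give is 0.0571, which the 6 pairs without overlap reached, and their Benjamini-Hochberg adjusted p over the 10 pairs was 0.0952. No pair can thus pass 0.05. Relative to *Lox*, *Loxl4* was lower by 1.58 on the log2 scale in Sp3-/- cells, *Loxl2* by 0.83 and *Loxl3* by 0.78, without overlap. Relative to *Loxl1*, *Loxl4* was lower by 1.75 and *Loxl2* by 1.00 without overlap, and *Loxl3* by 0.95 with overlap (exact permutation p = 0.114, adjusted p = 0.163). Within the subgroups, *Loxl1* to *Lox* differed by 0.17 (exact permutation p = 0.4, adjusted p = 0.444), *Loxl3* to *Loxl2* by 0.05 (exact permutation p = 1.0) and *Loxl4* to *Loxl3* by -0.80 without overlap. *Loxl4* to *Loxl2* differed by -0.75 with overlap (exact permutation p = 0.171, adjusted p = 0.214).

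Over the 11 libraries the log2 CPM of members correlated with Pearson's r from 0.66 (*Loxl1* and *Loxl4*) to 0.94 (*Loxl3* and *Loxl4*). All points share the libraries and their genotypes, and after the mean of each genotype was removed r ranged from -0.44 (*Lox* and *Loxl4*) to 0.59 (*Lox* and *Loxl1*, *Loxl3* and *Loxl4*). Likeness to every gene with a mean above 2 log2 CPM was measured in the same way, over 11203 genes. The 3 genes most like *Lox* were *Lrrcc1* (r = 0.98), *Ano3* (0.973) and *Nupr1* (0.956), and those most like *Loxl1* included *Tet1* (0.973) and *Fstl1* (0.969). *Loxl2* was most like *Lmod1* (0.991), *Actg2* (0.987) and *Akap12* (0.984). *Loxl3* was most like *Insig1* (0.989), *Samd14* (0.988) and *Gm2115* (0.987), and *Loxl4* like *Eif2b5* (0.992), *Chst7* (0.984) and *Sh3pxd2a* (0.978). These values order genes over the same 11 libraries and carry no test.

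Markers of other cells were compared in the same way, and 8.76% of all genes were called higher in Sp3-/- than in WT cells. Summed CPM of 6 smooth muscle markers, including *Acta2*, *Myh11* and *Actg2*, was 11700 to 25400 in WT, 14500 to 21000 in Sp3+/- and 4100 to 4980 in Sp3-/- libraries, and 5 of 6 were called lower in Sp3-/- than in WT cells, with *Des* at 0.12 (adjusted p = 0.869, edgeR). Summed CPM of 11 macrophage markers, *Lyz2* and *Csf1r* among them, was 618 to 3290 in WT, 374 to 3060 in Sp3+/- and 3110 to 11300 in Sp3-/- libraries, and 5 of 11 were called higher. The highest WT and Sp3+/- values were those of the libraries without a suffix, WT 468-4 at 3290 and Sp3+/- 697-4 at 3060 CPM, near Sp3-/- 685-1 at 3110, while the suffixed libraries held 374 to 891 CPM. Macrophage markers thus moved with the title suffix as well as with genotype. Mesothelial markers summed to 526 to 1120, 1020 to 1860 and 1200 to 4140 CPM, with 2 of 5 called higher. Endothelial markers summed to 33.4 to 93.9, 36.6 to 74.1 and 67.5 to 117 CPM, with 1 of 7 called higher, and epithelial markers to 20.8 to 47.1, 27.6 to 43.3 and 56.7 to 155 CPM, with 3 of 7 called higher. No marker was called between Sp3+/- and WT cells. Erythroid markers stayed at or below 15.9 CPM, with 2 of 4 at 0 in every library. *Alas2*, the only 1 tested, was called higher in Sp3-/- than in WT cells (1.66, adjusted p = 0.0303, edgeR). The part of these cell types in the levels of the lysyl oxidase genes was not tested.

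The substrates and partners of the enzymes were followed in 7 lists of 64 genes, of which 62 were tested. In Sp3-/- against WT cells 28 were called lower and 2 higher, beside 9.77% of all genes lower and 8.76% higher, and the median of all genes was -0.003. The lists were chosen with earlier results of these data known, so that these shares are no independent test of them. These counts moved with the libraries used, as did the calls over all genes. Lower calls in the lists numbered 33 without WT 468-4, 22 without Sp3-/- 685-1 and 15 without WT 685-2 or Sp3-/- 697-5. They numbered 13 without WT 697-3, 11 without WT 697-1 and 8 without Sp3-/- 697-2. With the suffix as a covariate they numbered 14, and with 697-4 coded as suffix 2 they numbered 4. Lower calls over all genes went from 1370 to 2108 without WT 468-4 and to 1056 without Sp3-/- 685-1. They numbered 582 without WT 685-2, 759 without Sp3-/- 697-5, 530 without WT 697-3, 501 without WT 697-1 and 171 without Sp3-/- 697-2. The suffix covariate gave 820, and 697-4 coded as suffix 2 gave 141. No listed gene was called in Sp3+/- against WT cells, and 31 were called lower and 4 higher in Sp3-/- against Sp3+/- cells, where 12.5% of all genes were called lower and 13% higher.

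Among the substrates, 3 of 11 collagen chain genes were called lower and none higher in Sp3-/- against WT cells (median log2 fold change -0.64). *Col11a1*, a chain of a minor fibrillar collagen, fell by 2.58 (adjusted p = 0.0137, edgeR). *Col5a1* and *Col5a2*, chains of the collagen that starts fibril assembly, gave -1.56 (adjusted p = 0.0153, edgeR) and -1.27 (adjusted p = 0.0283), and *Col5a3* gave 0.81 (adjusted p = 0.0591). *Col5a2* kept its call in 2 of the 7 fits that left out 1 library. In the elastic fiber list 9 of 16 genes were called lower, with a median of -1.46. Over the 7 fits that left out 1 library, this count depended strongly on the libraries used. It was 13 without WT 468-4, 5 in another fit and 1 or 2 in all the rest. With the title suffix as a covariate it was 2. *Eln*, the gene of tropoelastin, averaged 8.98±1.56 log2 CPM in WT, 8.64±1.49 in Sp3+/- and 3.41±2.66 in Sp3-/- cells, with 12 to 1816 reads in Sp3-/- libraries. Its call against WT (adjusted p = 0.0357, edgeR) held in 1 of the 7 fits, that without WT 468-4. *Efemp2*, whose product fibulin-4 tethers LOX to tropoelastin, fell by 0.78 (adjusted p = 0.00764, edgeR) and kept its call in all 7 fits. *Ltbp1* gave -2.12 (adjusted p = 0.0192, edgeR), *Ltbp2* -1.51 (adjusted p = 0.0246) and *Emilin1* -1.42 (adjusted p = 0.0232). The calls of these 3 genes held in 3, 1 and 2 of the 7 fits.

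Of the 7 tested genes for processing and docking of the enzymes and their substrates, 4 were called lower and none higher, with a median of -1.12. *Bmp1*, the gene of the proteinase that releases active LOX from its propeptide, averaged 8.37±0.24 log2 CPM in WT, 8.42±0.10 in Sp3+/- and 8.22±0.08 in Sp3-/- cells. Its log2 fold change was -0.16 (adjusted p = 0.460, edgeR). *Tll1*, which encodes a related proteinase, fell by 2.37 (adjusted p = 0.00727, edgeR) and kept its call in all 7 fits. *Pcolce*, an enhancer of procollagen cleavage, fell by 2.31 (adjusted p = 0.0170, edgeR), and *Postn*, the gene of periostin, fell by 2.26 (adjusted p = 0.0270). *Thbs1*, the gene of thrombospondin 1, fell by 1.12 (adjusted p = 0.0160, edgeR). Of these, *Pcolce* lost its call without Sp3-/- 697-2, and *Postn* and *Thbs1* lost theirs in 3 and 2 of the 7 fits. With the title suffix as a covariate 3 of the 7 genes were called lower, and *Postn* gave -1.63 (adjusted p = 0.126, edgeR).

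Lysine and proline residues of collagen are modified in the cell before the lysyl oxidases act. Of 14 genes for these steps 9 were called lower and none higher, with a median of -0.60. *Crtap*, a partner of prolyl 3-hydroxylase, fell by 0.93 (adjusted p = 0.00611, edgeR). *P4ha2* and *P4ha1*, catalytic subunits of prolyl 4-hydroxylase, gave -1.42 (adjusted p = 0.00611, edgeR) and -0.82 (adjusted p = 0.00997). *Plod3*, a lysyl hydroxylase, fell by 0.58 (adjusted p = 0.0137, edgeR). *Plod2*, the lysyl hydroxylase that acts on collagen telopeptides, gave -0.43 (adjusted p = 0.194, edgeR). *Crtap*, *P4ha1* and *P4ha2* kept their call in all 7 fits that left out 1 library, and *Plod3* in 6.

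**Figure D5:**
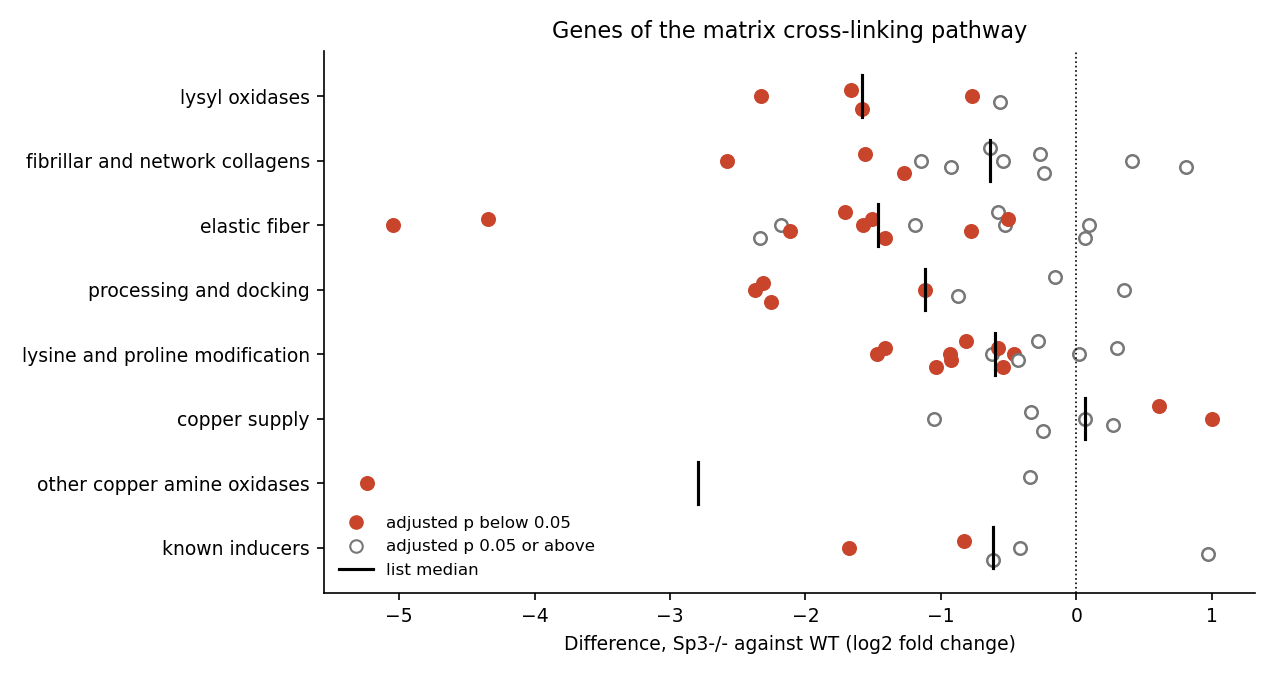
Log2 fold change between Sp3-/- and WT cells (x axis) of the lysyl oxidases and of the 62 tested genes in 7 lists of substrates and partners (y axis). Each point is 1 gene, filled where the adjusted p was below 0.05, and the bar is the list median. Among filled points, the 2 to the right of 0 belong to the copper supply list.

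The copper that the enzymes need is supplied by a set of transporters and chaperones, of which 0 of 7 were called lower and 2 were called higher in Sp3-/- against WT cells, with a median of 0.06. *Slc31a2*, a copper transporter gene, rose by 1.00 on the log2 scale (adjusted p = 0.0100, edgeR) and kept its call in all 7 fits. *Atp7a*, whose product loads copper onto secreted cuproenzymes, averaged 5.95±0.21 log2 CPM in WT, 5.97±0.27 in Sp3+/- and 6.56±0.09 in Sp3-/- cells. It rose by 0.61 (adjusted p = 0.0241, edgeR), and the call held in 2 of the 7 fits, those without WT 468-4 or without Sp3-/- 685-1. *Atp7b* gave -1.05 (adjusted p = 0.123, edgeR) and *Commd1* -0.33 (adjusted p = 0.0765). Of the other copper amine oxidases, *Aoc3* was called lower but had 1 to 5 reads in Sp3-/- and 17 to 276 in WT libraries, and *Aoc2* gave -0.34 (adjusted p = 0.387, edgeR). With the title suffix as a covariate, 1 of the 7 copper supply genes was called lower and 1 higher. *Atp7a* then gave 0.39 (adjusted p = 0.0753, edgeR).

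Of 5 genes known to induce lysyl oxidases or to act as their upstream signals, 2 were called lower and none higher, with a median of -0.61. *Tgfb2*, a transforming growth factor beta ligand, fell by 1.68 (adjusted p = 0.00611, edgeR) and kept its call in all 7 fits. *Hif1a*, the gene of the oxygen-sensitive subunit of hypoxia-inducible factor, fell by 0.83 (adjusted p = 0.0320, edgeR), a call that held in 1 of the 7 fits, that without WT 468-4. *Tgfb1* gave 0.97 (adjusted p = 0.0851, edgeR) and *Tgfb3* -0.42 (adjusted p = 0.0922). Against Sp3+/- cells 3 of the 5 were called lower and 1 higher. There *Tgfb1* was called higher, at 1.26 (adjusted p = 0.0162, edgeR), and *Tgfb3* lower, at -0.54 (adjusted p = 0.0425). Against WT with the title suffix as a covariate, *Hif1a* gave -0.46 (adjusted p = 0.116, edgeR), and 1 of the 5 genes was called lower.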

How the data were processed

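RNA-seq of E15 fetal lung mesenchymal cells was analysed in 11 libraries, grouped by the genotype in the labels. Per the labels, TruSeq libraries were made from 10 ng of RNA and sequenced as 50 bp single end reads. The authors checked reads with FastQC 0.10.1, aligned them with STAR 2.4.5a to mm10 and deposited whole-number counts per gene symbol from htseq-count. The annotation version is not given in the sources used here. The 5 tally rows of reads assigned to no gene were left out (38.4% to 40.9% of the tallied total), most of them alignments that were not unique (30.1% to 33.7%). Each fit kept the genes that exceeded 1 CPM in any of its libraries (at least 1) and used edgeR 4.0.16 (TMM, robust quasi-likelihood, Benjamini-Hochberg over all genes tested) in R 4.3.3. The WT against Sp3-/- fit used 7 libraries and the comparisons with Sp3+/- all 11. Log2 CPM used a prior count of 2. RPKM was computed from the counts with exon lengths of GENCODE M39, which is annotated on GRCm39. The strands of the members and the overlaps between genes also come from it, and the printed positions are those of GRCm38.p6. Replicates differed beyond counting noise (lowest chi-square per degree of freedom 16.6). Alternatives used DESeq2 1.42.0 and limma 3.58.1, other scalings, filters and covariates, and each library left out in turn. The text names all members, overlapping genes, the 4 genes of each list with the smallest p, *Eln*, *Bmp1*, *Plod2* and *Atp7a*, and the 3 genes most like each member, of which 1 is not reported here. The members and lists were chosen with earlier results of these data known. Counting error and replicate spread limit precision, and depth was at least 9849111 reads on genes.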

Additional observations from a re-analysis of the deposited data

Results flagged for a closer look

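*Loxl1* in WT library 468-4 stood at 7.70 log2 CPM, apart from the other WT libraries at 8.26 to 8.31, and its gap to the nearest of them took 0.914 of the range of the group, above Dixon's 95% critical value for 4 libraries. The 5 members were examined in the WT and Sp3+/- groups, which makes 10 groups of 4 libraries, and this was the only 1 past the critical value. Chance marks about 1 in 20 such groups.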

How the results depend on the processing

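Between Sp3-/- and WT cells all 5 members kept a negative log2 fold change under every alternative run. *Lox* lost its call with library size alone (-0.77), with every gene that had a count (-0.78), with edgeR's filterByExpr (-0.77), with the first label number as a block (-0.83), with the suffix covariate (-0.53) and among libraries without a suffix (-0.65), and leaving out 1 library gave -0.95 to -0.61. In libraries without a suffix the number of members called was 0, and *Loxl2* (-1.12), *Loxl3* (-1.17) and *Loxl4* (-2.0) also lost their calls. With 697-4 coded as suffix 2, chosen after seeing the data, 0 members were called (*Lox* -0.64, *Loxl2* -1.12, *Loxl3* -1.16, *Loxl4* -1.99). In both of these fits the Sp3-/- libraries were set against WT 468-4, the lone WT library without a suffix. In the former it was assumed to vary like the Sp3-/- libraries. Leaving out 1 library, 2 to 4 members were called and *Loxl2* ranged from -1.81 to -1.41. Against Sp3+/- cells 3 members were called with the suffix covariate, 0 with 697-4 as suffix 2, and 3 to 5 when 1 library was left out. Between Sp3+/- and WT cells, where nothing was called, *Loxl4* turned to -0.08 with the suffix covariate and -0.09 with 697-4 as suffix 2, and leaving out 1 library gave -0.11 to 0.27 for *Loxl4*, -0.23 to 0.03 for *Loxl3* and -0.0016 to 0.38 for *Loxl2*. The causes were not tested. Genes called between Sp3-/- and WT cells numbered 2599 in all, 4297 with DESeq2, 4031 with the block, 3977 with all 11 libraries, 1329 with the suffix covariate, 163 with 697-4 as suffix 2, 0 without suffixed libraries, and 282 (without Sp3-/- 697-2) to 4179 (without WT 468-4) when 1 library was left out. Against Sp3+/- cells they numbered 3607, 763 with the suffix covariate, 0 with 697-4 as suffix 2 and 1490 to 4245 when 1 library was left out. Upper quartile scaling raised the share of lower calls from 52.7% to 63.0% (from 49.0% to 60.2% against Sp3+/- cells). Per kilobase of coding sequence the WT level of *Lox* was 1870 RPKM, of *Loxl2* 635, of *Loxl1* 157, of *Loxl3* 44.2 and of *Loxl4* 37.7. The first label number gave no more than 2 libraries of a genotype each, and its consensus correlation was 0.106. As a block for Sp3-/- against WT cells, it held WT 468-4 alone in its number, which thus added nothing to the contrast. No paired analysis was possible because the labels do not say which libraries share a litter, day or animal, and the block on the first label number given here rests on an unexplained number.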
